A study of Mus musculus with 12 samples.

Results

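Mouse induced pluripotent stem cells made with mouse Nanog (mNanog iPS, 3 samples) were compared with neural stem cells that lack Nanog (NS, 3 samples). These 6 of the 12 samples of the study were taken by their titles, and a probe was tested when its detection p-value was under 0.01 on at least 3 of the 6 arrays, which kept 16961 of 45281 probes (37.5%). The tested probes read 9534 named genes. The other groups, iPS cells made with human NANOG (hNanog iPS) and embryonic stem (ES) cells, hold 3 samples each and are used below only where the comparison turns on them. Every sample of the 4 groups is labelled with the strain E14Tg2A (129), the name of an ES line from 129 mice. Both iPS groups and the ES cells grew in N2B27, a serum-free medium, with LIF, the GSK3 inhibitor CHIR99021 at 3 µM and the MEK inhibitor PD0325901 at 1 µM. How the NS cells were grown is not stated in the labels, so medium and cell type cannot be told apart in any difference below. The labels name neither the cells from which the iPS cells were made nor the number of clones, and they do not say whether replicates were separate cultures. The p-values therefore cover the spread among these arrays alone, which may be technical.

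Pluripotent stem cells can form every lineage of the embryo, and mouse cells held with LIF and inhibitors of MEK and GSK3 keep a state close to the early epiblast. Nanog is a homeodomain transcription factor of that state and works beside Pou5f1 (Oct4), Sox2 and Esrrb. Neural stem cells divide in culture with growth factors, express glial and radial glial genes such as Slc1a3, Sox9 and Olig1, and share Sox2 with pluripotent cells. A comparison of both therefore spans a large change of cell identity between samples that share a strain label. Whether they share a genetic background beyond that label was not tested.

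Levels are given as normalized log2 intensities, on which a difference of 1 is a 2-fold change. Where no array of a group detected a probe, its level there has only an upper bound, and the difference is given as "at least N-fold" against the lowest detected level of those arrays. Where some arrays of a group detected a probe and others did not, the number is given, and the difference then takes in levels that were not above background. The 6 arrays had mean signals of 321.4 to 561.9 and detected 13691 to 16776 probes. Array 3 of mNanog iPS and arrays 1 and 3 of NS were brighter than the other three. Replicates correlated at 0.989 to 0.996 across probes and the groups with each other at 0.711 to 0.721, where probes are not independent replicates. Of 12 markers of pluripotent cells, 11 were tested, and each of the 11 was detected on every mNanog iPS array and was higher there. Of 14 neural stem cell markers, 10 were tested, each was detected on every NS array and lower in mNanog iPS, and 7 were detected on no mNanog iPS array. Those 7, and 8 of the pluripotent markers that no NS array detected, entered the test through 1 group alone. Their detection and direction therefore follow from the rule. Over all genes tested, 38.8% were higher in mNanog iPS and 40.5% lower. Markers of differentiated neural cells lay mostly on the NS side. Lower in mNanog iPS were 3 of 4 neuronal markers tested, 3 of 4 astrocyte markers and 3 of 3 oligodendrocyte markers. Of these, Rbfox3, Syt1, Aqp4, Slc1a2, Cldn11 and Mbp were detected on no mNanog iPS array, so their direction follows from the rule. In NS, summed linear levels of tested markers were 4957 to 5179 for neurons, 5752 to 8329 for astrocytes and 1482 to 1712 for oligodendrocytes. In mNanog iPS the sums were 1833 to 2015, 969.5 to 1152 and 108.9 to 113.9. Single genes made up most of the first sums in NS, Map2 (12.26) for neurons and Aldoc (12.68) for astrocytes. Rbfox3 (6.04) and Syt1 (5.57) were dim in NS. In mNanog iPS the neuronal sum was mostly Stmn2 (10.82). None of the 6 blood and microglial and the 6 primitive endoderm markers on the marker list entered the test. In a longer list of blood, microglial and endothelial genes, 5 were tested. Laptm5, Pecam1 and Eng were higher in mNanog iPS, and Emcn was lower. Detection was in mNanog iPS alone for 3 of the 5 and in NS alone for 1. The 1 trophectoderm marker tested, Krt8, was higher. The fibroblast markers Dcn, Thy1 and Col1a1, 3 of the 8 listed, were higher in mNanog iPS. Their summed linear level was 668.2 to 850.2 against 103.1 to 117.5 in NS. No NS array detected Krt8, Dcn or Col1a1, so the direction of these genes also follows from the rule. The part of other cells in the results below was not tested, and the fibroblast markers are described with the matrix genes below.

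Nanog had 2 tested probes. At ILMN_1245732 its level was 12.22, 12.17 and 12.54 in the 3 mNanog iPS arrays and 4.33, 4.49 and 4.42 in the NS arrays, and at ILMN_2706623 it was 11.21, 11.49 and 11.67 against 4.79, 4.55 and 4.81. Neither probe was above background on any NS array. The labels call these cells Nanog null, and whether the probes lie in the deleted part is not analysed here, so the low level does not check that label. The differences were at least 136-fold (adjusted p = 1.6e-14) and at least 75.1-fold (adjusted p = 1.2e-13).

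Most of the measured transcriptome differed between these cell types. Of the 16961 probes, 13073 (77.1%) passed the threshold, an adjusted p of 0.05 in limma's moderated test, with 6551 higher in mNanog iPS (38.6%) and 6522 lower (38.5%). A change of at least 2-fold was called at 6727 probes (39.7%), of which 3120 were higher (18.4%) and 3607 lower (21.3%). The even split rests on quantile normalization: when arrays were only scaled to a common median, the median of all tested probes moved from 0.02 to -0.40, and 2500 probes were called higher and 6338 lower. A test of whether the change exceeds 2-fold called 4959 probes, 2286 higher and 2673 lower. Read gene by gene from the brightest probe, 38.8% of the 9534 genes were higher and 40.5% lower, 79.4% in all, and these shares are the background for each gene list below. The groups did not overlap at 79.9% of the genes. Among genes, 410 were higher and 478 lower by at least 3 on the log2 scale.

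**Figure D1:**
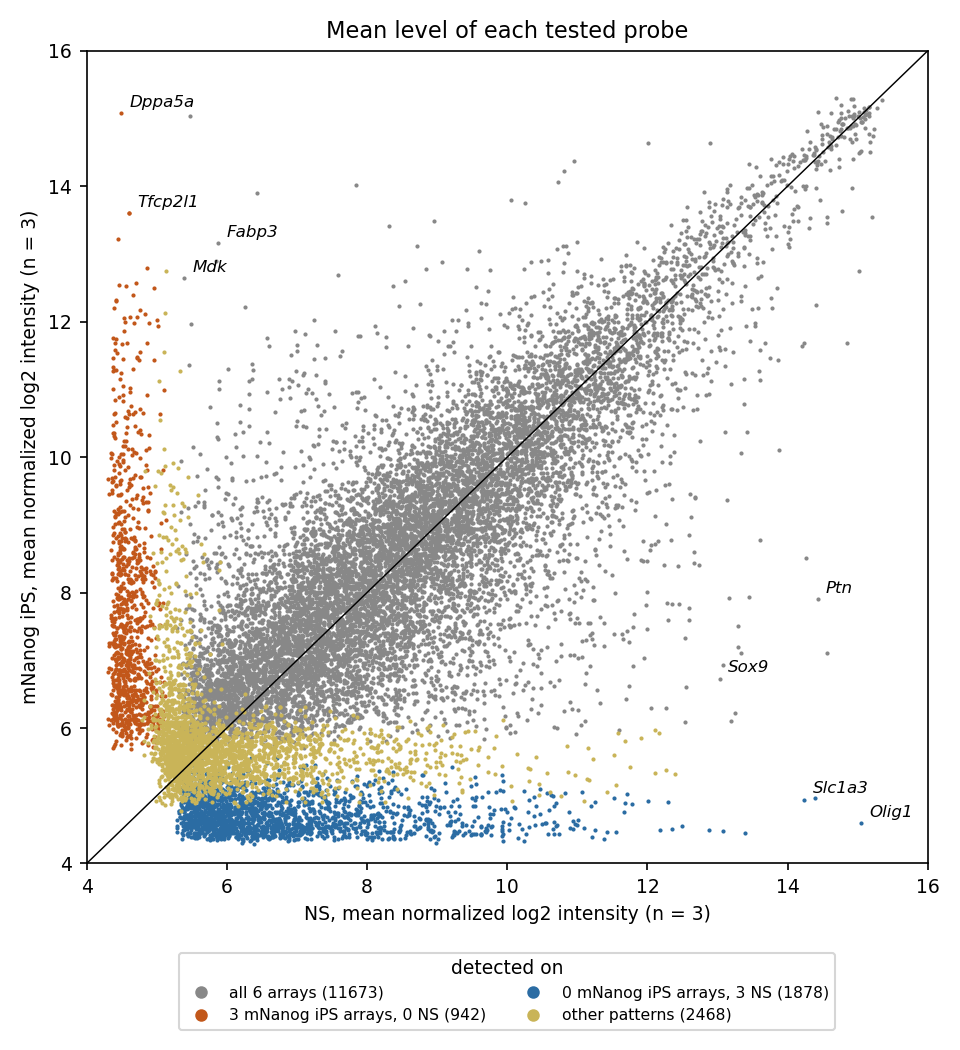
Mean normalized log2 intensity of each of the 16961 tested probes in NS (x axis) and mNanog iPS (y axis), n = 3 arrays each, coloured by the arrays that detected it; the line marks equal levels. Probes detected in 1 group alone lie along the axes and reach levels of 15, as Dppa5a and Olig1 show.

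Many differences were between a detected and an undetected transcript. The brightest probe of 548 genes was detected on all mNanog iPS arrays and no NS array, that of 937 genes on all NS arrays and no mNanog iPS array, and that of 6999 genes on all 6. These classes follow from the measured levels and their size is a description. Genes detected in mNanog iPS alone reached a median level of 7.54 there, with a median bound of 4.97-fold and 59 bounds of at least 32-fold. Genes detected in NS alone had lower levels, with a median level of 6.62 in NS and a median bound of 2.25-fold, and for 102 of them the bound gave no fold above 1. The lowest detected level was 5.15 to 5.36 on the NS arrays and 5.28 to 5.80 on the mNanog iPS arrays, so dimmer genes could count as detected in NS. Most of the 548 genes were detected on all arrays of the other pluripotent groups as well, 468 in hNanog iPS and 425 in ES. Of the 937 NS genes, 806 were detected on no hNanog iPS array and 803 on no ES array.

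The largest bounds in mNanog iPS belonged to known pluripotency genes and to a few genes with other names. Dppa5a, an RNA-binding protein of pluripotent and germ cells, stood at 15.14, 15.07 and 15.01 in mNanog iPS and 4.50, 4.62 and 4.37 in NS at ILMN_3018711, a difference of at least 923-fold (adjusted p = 3.2e-15). Its other probe, ILMN_3090545, was detected on all 6 arrays at 15.03 ± 0.08 against 5.47 ± 0.20 (SD, n = 3). Tfcp2l1, a transcription factor downstream of LIF, was at 13.58, 13.61 and 13.63 against 4.50, 4.85 and 4.48, at least 333-fold higher (adjusted p = 3.8e-15). Laptm5, a lysosomal membrane protein best known from blood cells, had the same bound, from 13.53, 13.67 and 13.61 in mNanog iPS and 4.41, 4.73 and 4.65 in NS (adjusted p = 3.3e-15). It was as bright in hNanog iPS (13.40) and bright in ES (12.78). Pou5f1 was at 13.13, 13.23 and 13.33 against 4.53, 4.39 and 4.40 at ILMN_1252910, at least 256-fold higher, and at least 190-fold higher at ILMN_1217100. Gstp2, a glutathione transferase, was at least 163-fold higher. Other than the second Dppa5a probe, these probes were chosen as detected on all 3 mNanog iPS arrays and on no NS array.

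The largest bounds in NS belonged to glial genes and an immediate early gene. Olig1, a bHLH factor that acts in oligodendrocyte development, was at 15.10, 15.03 and 14.99 in NS and 4.60, 4.50 and 4.69 in mNanog iPS, at least 686-fold lower in mNanog iPS (adjusted p = 2.9e-11). Egr1, a transcription factor induced by ERK signalling, was at 14.53, 14.32 and 14.30 in NS and 4.86, 5.05 and 4.999 in mNanog iPS, at least 435-fold lower (adjusted p = 3.3e-15). MEK, which PD0325901 inhibits, activates ERK, and the part of the inhibitor in this difference cannot be told apart from that of the cell type. Slc1a3, the glial glutamate transporter, was at 14.40, 14.01 and 14.31 in NS and 4.85, 4.90 and 5.07 in mNanog iPS, at least 394-fold lower (adjusted p = 3.3e-14). Ednrb, the endothelin B receptor, was at least 219-fold lower, from 13.61, 13.25 and 13.33 to 4.47, 4.54 and 4.33. Mt3, a brain metallothionein, was at least 176-fold lower, from 13.004, 12.99 and 13.24 to 4.47, 4.41 and 4.57. Tril, a membrane partner of Toll-like receptors, was at least 117-fold lower. Each was near the top of the NS range. Detection on all 3 NS arrays and on no mNanog iPS array was a condition of the choice.

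Promoter sequence, which the rule did not use, differed between these classes. RefSeq windows from 250 bases before to 50 bases after the gene start (build GRCm38.p6) were found for 409 of the 548 genes detected in mNanog iPS alone and for 693 of the 937 detected in NS alone. A window was counted as rich in CpG when its GC content was at least 50% and its CpG count at least 0.6 of that expected from its base composition. Windows of the mNanog iPS genes were rich in CpG in 32.8% of cases, against 58.2% for the NS genes, 72% for all genes tested and 34.1% of the 27025 promoters in the table. Among genes detected on all 6 arrays the shares were close to each other, 72.8% for those at least 2-fold higher, 74% for those at least 2-fold lower and 79.2% for those that did not pass the threshold. The median window held 10 CpG in the mNanog iPS genes and 19 in the NS genes. Level and tissue range of a gene also go with CpG content, and their part in this difference was not tested. The windows of 6 of the switch genes named above are printed here to show how far they differ in CpG, with each CpG in capitals and all other bases in lower case, 5′ to 3′ on the gene's strand. Tfcp2l1 (chr1:118627695-118627994, plus strand, 21 CpG), Laptm5 (chr4:130913066-130913365, plus strand, 9 CpG), Pou5f1 (chr17:35505782-35506081, plus strand, 11 CpG, 1 of 2 windows in the table), Slc1a3 (chr15:8710758-8711057, minus strand, 3 CpG), Ednrb (chr14:103843652-103843951, minus strand, 15 CpG) and Mt3 (chr8:94152357-94152656, plus strand, 8 CpG) follow.
Tfcp2l1: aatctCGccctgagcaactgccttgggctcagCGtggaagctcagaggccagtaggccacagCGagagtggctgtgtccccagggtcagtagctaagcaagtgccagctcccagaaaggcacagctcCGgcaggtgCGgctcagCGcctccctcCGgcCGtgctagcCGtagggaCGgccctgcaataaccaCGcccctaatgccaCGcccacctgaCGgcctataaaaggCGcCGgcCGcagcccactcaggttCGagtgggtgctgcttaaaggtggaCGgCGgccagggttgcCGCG
Laptm5: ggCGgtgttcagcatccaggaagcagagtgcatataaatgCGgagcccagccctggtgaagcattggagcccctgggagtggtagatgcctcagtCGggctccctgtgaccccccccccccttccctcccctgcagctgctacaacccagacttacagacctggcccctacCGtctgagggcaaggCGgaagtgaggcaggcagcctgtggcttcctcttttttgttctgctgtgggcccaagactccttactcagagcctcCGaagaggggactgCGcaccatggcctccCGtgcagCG
Pou5f1: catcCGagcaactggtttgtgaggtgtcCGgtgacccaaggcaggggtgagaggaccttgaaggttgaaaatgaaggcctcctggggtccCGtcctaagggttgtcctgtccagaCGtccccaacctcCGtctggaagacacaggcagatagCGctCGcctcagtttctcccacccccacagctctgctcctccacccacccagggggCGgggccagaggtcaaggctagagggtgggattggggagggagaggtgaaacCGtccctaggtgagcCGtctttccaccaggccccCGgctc
Slc1a3: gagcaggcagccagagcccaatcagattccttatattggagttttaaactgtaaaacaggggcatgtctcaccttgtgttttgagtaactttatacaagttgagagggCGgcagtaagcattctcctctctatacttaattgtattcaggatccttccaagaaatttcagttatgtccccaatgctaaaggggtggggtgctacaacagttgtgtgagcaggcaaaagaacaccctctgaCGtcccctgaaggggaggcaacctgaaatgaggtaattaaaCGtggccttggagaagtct
Ednrb: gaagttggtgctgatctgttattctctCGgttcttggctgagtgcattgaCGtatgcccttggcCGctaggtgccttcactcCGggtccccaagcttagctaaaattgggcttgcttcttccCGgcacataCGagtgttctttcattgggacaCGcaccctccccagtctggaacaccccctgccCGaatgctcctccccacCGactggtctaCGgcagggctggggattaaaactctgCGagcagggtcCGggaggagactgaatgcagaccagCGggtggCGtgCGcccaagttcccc
Mt3: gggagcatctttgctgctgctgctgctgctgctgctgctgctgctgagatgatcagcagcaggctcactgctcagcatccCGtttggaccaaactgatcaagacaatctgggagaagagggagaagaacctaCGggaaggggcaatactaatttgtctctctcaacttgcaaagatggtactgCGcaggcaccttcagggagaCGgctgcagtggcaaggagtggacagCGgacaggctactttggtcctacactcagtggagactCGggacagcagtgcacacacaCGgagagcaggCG

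Only the Tfcp2l1 window of these 6 was rich in CpG, with a GC content of 65.3%, and the Slc1a3 window was the lowest in GC at 45.3%. Short motifs were counted on both strands. TATAAA, the core of the TATA box, lay in the windows of Tfcp2l1, Laptm5 and Slc1a3. It was found in 12% of windows of genes detected in mNanog iPS alone, 7.79% of those detected in NS alone, 6.92% of all genes tested and 14.2% of all promoters. TGANTCA, the AP-1 motif, was found in 8.56%, 4.47%, 4.41% and 7.93% of the same sets. ATGCAAAT, the octamer of POU factors, was found in 1.71% and 1.59% of the mNanog iPS and NS sets and in 1.75% of all promoters. A match says only that these letters lie in the window.

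**Figure D2:**
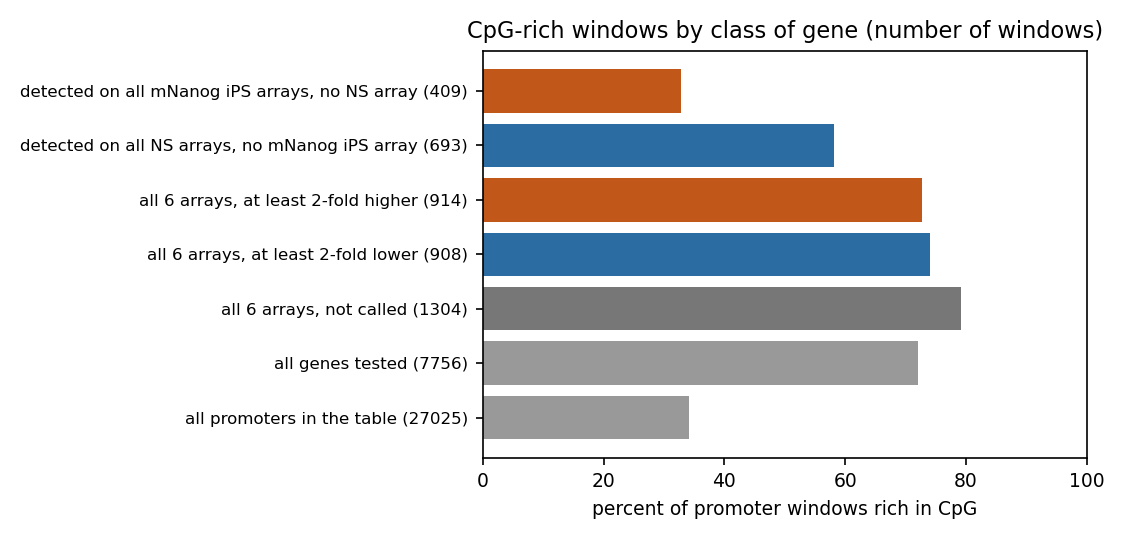
Percent of 300-base promoter windows rich in CpG (x axis) for classes of genes (y axis), with the number of windows in brackets. The windows of genes detected only in mNanog iPS are rich in CpG in 32.8% of cases, the other classes of tested genes in 58.2% to 79.2%.

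Among probes detected on all 6 arrays, the largest differences covered growth factors, lipid and mitochondrial proteins beside transcription factors. Mdk and Ptn, midkine and pleiotrophin, form a family of heparin-binding growth factors and moved in opposite directions. Mdk was at 12.67, 12.67 and 12.57 in mNanog iPS and 5.34, 5.40 and 5.44 in NS, a difference of 7.25 ± 0.08 (SE, adjusted p = 3.2e-15). Ptn was at 7.95, 7.86 and 7.89 in mNanog iPS and 14.50, 14.30 and 14.49 in NS, a difference of -6.53 ± 0.10 (SE, adjusted p = 1.7e-14). Every array of one group was above every array of the other for both genes, as their choice required. Esrrb, an orphan nuclear receptor of pluripotent cells, was at 13.997, 13.85 and 13.84 against 6.37, 6.53 and 6.42, a difference of 7.46 ± 0.08. Fabp3, a fatty acid binding protein best known from heart, was at 13.24, 13.24 and 13.01 against 5.71, 5.85 and 6.08, a difference of 7.28 ± 0.11. Klf5, a pluripotency factor, differed by 5.96 ± 0.08. The mitochondrial proteins Chchd10 and Ckmt1, a creatine kinase, differed by 6.18 ± 0.16 and 5.29 ± 0.14. Tcea3, a transcription elongation factor, Rpp25, a subunit of RNase P, and Pdlim1, an actin-associated protein, differed by 6.47, 5.90 and 5.19.

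In the other direction, Sox9, an HMG-box factor needed for gliogenesis, was at 12.93, 13.33 and 12.86 in NS and 6.89, 6.75 and 6.55 in mNanog iPS, a difference of -6.31 ± 0.14 (SE, adjusted p = 3.9e-13). Ccnd2, a D-type cyclin, was at 13.37, 13.41 and 13.08 against 6.88, 7.33 and 7.37, a difference of -6.09 ± 0.14, and its second probe gave -5.95 ± 0.11. Plat, the tissue plasminogen activator, was at 12.88, 13.26 and 13.10 against 6.87, 6.87 and 7.02. At these probes Sox9 and Ccnd2 were detected on every mNanog iPS array and on no array of hNanog iPS or ES. A dimmer probe of each gene, ILMN_3007428 and ILMN_1225932, was detected on all NS arrays and on no mNanog iPS array. The microtubule protein Map2 differed by -5.97, the reticulon Rtn1 by -5.80, the protein kinase Prkcb by -5.75, the transcription cofactor Lbh by -6.45 and the secreted glial factor Metrn by -5.75. Groups that do not overlap were a condition for choosing these genes with the largest differences, and 77.3% of all tested probes met it.

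**Figure D3:**
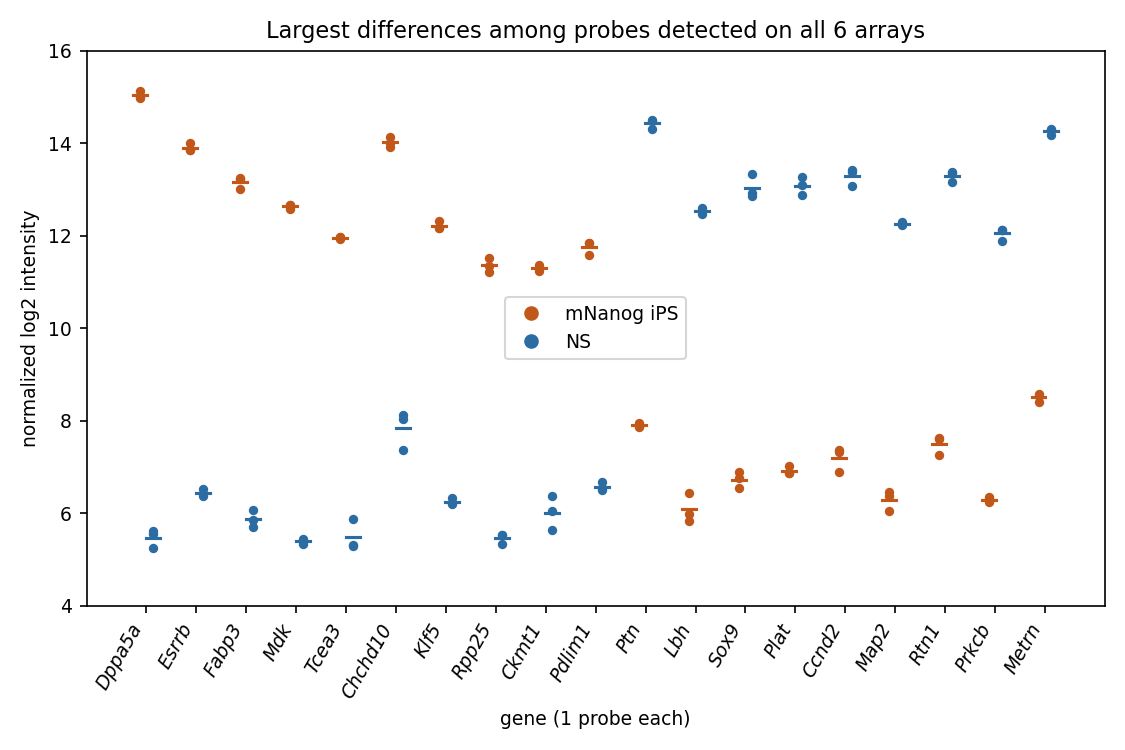
Normalized log2 intensity (y axis) on each array for the genes with the largest differences among probes detected on all 6 arrays; points are arrays, bars are means of 3. The 10 genes on the left are higher in mNanog iPS and the 9 on the right higher in NS. Groups that do not overlap were a condition of the choice.

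Of the 68 gene lists, 31 had more members higher than lower in mNanog iPS, 34 the reverse and 3 equal numbers. Members detected in 1 group alone entered the test through that group, so their direction follows from the rule. List medians were over 1.5 times larger than in the authors' processed values for 48 of the 68, and over 1.5 times larger than with undetected members at their bound for 11, with no change of sign in the authors' values. Of 23 pluripotency transcription factors tested, 21 were higher and 2 lower. The median difference was 4.64 against -0.01 over all genes (4.43 with undetected members at their bound). Detection was in mNanog iPS alone for 10 of the 23, against 548 of all 9534 genes. Among the 12 on all 6 arrays, 10 were higher and 2 lower (median 3.25). Klf2, a Krüppel-like factor, was at 12.72, 12.62 and 12.89 in mNanog iPS and 5.05, 5.12 and 5.24 in NS, where 1 array detected it. The 2 lower members were Etv4, an Ets factor (9.08 against 9.95), and Sox2, which lay at 9.49 in mNanog iPS and 9.72 in NS (-0.22 ± 0.09, adjusted p = 0.043). Sox2 lost this call when any 1 of 5 arrays was left out, replicates 2 and 3 of mNanog iPS or any NS replicate, with differences of -0.24 to -0.16 and an adjusted p of up to 0.16, and with replicate number as a block (adjusted p = 0.052). Of 21 neural transcription factors, 3 were higher and 17 lower. The list median was -2.51, or -1.72 with undetected members at their bound and -0.84 in the authors' processed values. NS alone detected 10 of the 21 and mNanog iPS alone 2, and the 5 on all 6 arrays were all lower. Nkx2-2 and Olig2, patterning factors of the ventral neural tube, were at least 23.1-fold and at least 17.7-fold lower, and Meis1, a homeodomain factor, fell by 4.52 on the log2 scale to a level that 1 mNanog iPS array detected. The higher members were Irx2, Nkx6-2 and Id4, and Id4 differed by 0.80, or 0.53 without replicate 2 of NS.

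Of 13 Sox factors, 12 were lower and 1, Sox15, a Sox factor of ES cells, was higher by at least 1.9-fold. Sox11, a factor of immature neurons, was at 11.89, 11.97 and 11.85 in NS and 5.99, 5.69 and 5.88 in mNanog iPS, where 2 arrays detected it (-6.05 ± 0.12). Sox4, detected on 2 mNanog iPS arrays, and Sox8, detected on 1, differed by -5.66 and -4.51. The list median of -2.54 was -1.43 with undetected members at their bound. NS alone detected 5 of the 13 and mNanog iPS alone 1, and the 4 on all 6 arrays were all lower. Of the 4 POU factors tested, Pou5f1 was higher and the neural class III factors Pou3f1, Pou3f3 and Pou3f4 were lower, by at least 19.8-fold, 2.73-fold and 1.79-fold. Pou3f1 varied among NS arrays, at 9.56, 10.55 and 9.67. Of the 4 nuclear factor I genes, which act in glial differentiation, 3 were lower and none was higher. Nfia was at least 8.4-fold lower, whereas Nfib and Nfix, lower by 4.32 and 2.74, were detected on every mNanog iPS array.

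Signalling genes differed in ligands, receptors and targets. Of 31 genes of the TGF-beta and BMP pathway, 13 were higher and 14 lower, with a median of 0.08 that turned to -0.11 under cyclic loess and -0.36 under median scaling. Of the 14 detected on all 6 arrays, 4 were higher and 7 lower, with a median of -0.53. The ligands Nodal, Gdf3 and Bmp4 of this pathway were higher by at least 60.8-fold, 51.8-fold and 43.7-fold. Nodal, the ligand that patterns the early epiblast, was at 11.22, 11.05 and 11.18 in mNanog iPS and was detected on no NS array. Bmp1, a protease that processes procollagen, was at 11.11, 11.26 and 11.08 in NS and 5.62, 5.96 and 5.54 in mNanog iPS, where 2 arrays detected it. Of 27 receptor tyrosine kinases and ligands, 9 were higher and 18 lower, with a median of -1.56 (-1.04 with undetected members at their bound). Ntrk2, the receptor of BDNF, was at least 71.5-fold lower, and Egfr, the EGF receptor used to expand neural stem cells, was at 11.85, 11.71 and 11.67 in NS and 6.51, 6.78 and 6.60 in mNanog iPS. Fgf4, a ligand made by pluripotent cells, was at least 5.67-fold higher.

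Of 20 ERK target and feedback genes, 17 were lower and 3 higher, with a median of -2.21. Dusp6, an ERK phosphatase, was at 13.65, 13.81 and 13.34 in NS and 8.82, 8.81 and 8.69 in mNanog iPS, a difference of -4.83 ± 0.12 (SE, adjusted p = 1e-12). Fos was lower by 4.92 and Egr2 by at least 17.2-fold. The 3 higher members were Dusp1, Etv5 and Errfi1. Errfi1, at 0.22, lost the call when any 1 array other than replicate 2 of NS was left out, with differences of 0.17 to 0.22 and an adjusted p of up to 0.12, and with replicate number as a block (adjusted p = 0.051), and it turned to -0.27 under median scaling. Of 16 Notch pathway genes, 10 were lower and 3 higher (median -1.74). The Notch targets Nrarp and Hey1 fell by 5.02 and 4.74, the ligand Dner fell by 4.05, and Hes5, a repressor of neurogenic genes, was at least 6.28-fold lower. The members that were higher, Numbl, Notch4 and Numb, changed by 0.41 to 1.11, and Numb turned to -0.071 under median scaling. Of 8 Hedgehog pathway genes, 5 were lower and 1 higher. Smo, the signal transducer, was lower by 3.06 and Ptch1, the receptor, by 1.81, whereas Gli2, an effector, was higher at its brighter probe (1.60) and lower at the other (-1.27).

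Of 30 Wnt pathway genes, 12 were higher and 16 lower, with a median of -0.52 (-0.30 with undetected members at their bound). NS alone detected 10 of them, whose direction follows from the rule. Of the 14 detected on all 6 arrays, 9 were higher and 4 lower, with a median of 0.94. The higher members included Wnt target genes. Sp5, a transcription factor induced by Wnt, was at 11.60, 11.57 and 11.47 in mNanog iPS and 5.19, 4.60 and 5.51 in NS, where 2 arrays detected it, a difference of 6.45 ± 0.19. Axin2, a feedback target, was higher by 1.24. The lower members included ligands: Wnt7a and Wnt7b were at least 33.1-fold and 17.1-fold lower, and Wnt5a, detected on 1 mNanog iPS array, differed by -5.27. CHIR99021 activates this pathway below the ligand, and its part cannot be told apart from that of the cell type. Of 19 genes of the LIF and STAT3 pathway, 11 were higher and 7 lower (median 1.20). Socs2, a feedback inhibitor of cytokine receptors, was at 11.55, 11.70 and 11.72 against 7.06, 7.05 and 6.88, and Klf4, a target of STAT3, was higher by 4.64. The lower members included the kinases Jak2 (-2.44) and Jak1 (-0.95), the transcription factor Junb (-2.28) and the phosphatase Ptpn11 (-1.03).

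**Figure D4:**
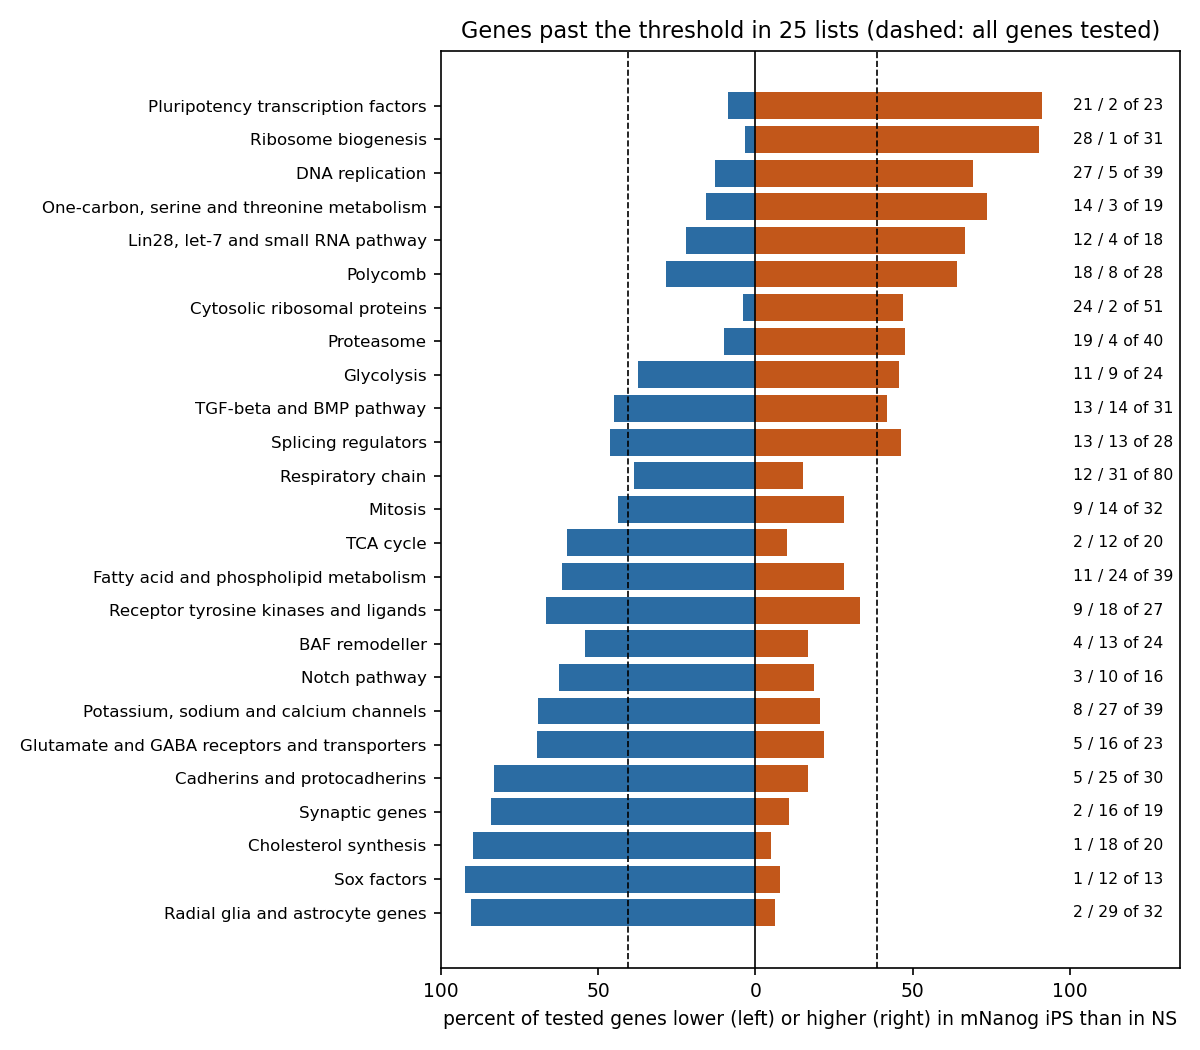
Percent of the tested genes of 25 lists (y axis) that were higher (right) or lower (left) in mNanog iPS than in NS (x axis), with the counts at the right edge; dashed lines mark 38.8% higher and 40.5% lower over all genes. Ribosome biogenesis and pluripotency factors lie farthest right, and Sox factors, radial glial genes and cholesterol synthesis farthest left.

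Chromatin regulators differed in both directions. Of 28 Polycomb genes, which keep developmental genes silent, 18 were higher and 8 lower (median 0.92). Cbx7, a reader subunit of the first Polycomb complex, was at 10.01, 10.08 and 9.86 in mNanog iPS and undetected in NS, at least 27.1-fold higher. Epop and Mtf2, partners of the second complex, were higher by 4.55 and 2.96, and Yaf2, an alternative subunit of the first, detected on 2 mNanog iPS arrays, differed by -2.74. Of 24 subunits of the BAF nucleosome remodeller, 13 were lower and 4 higher (median -0.37). Smarca2, one of its alternative ATPases, was at 10.99, 10.99 and 10.87 in NS and 7.13, 7.13 and 6.98 in mNanog iPS (-3.87 ± 0.12), and Smarcd3 and Smarcc2 differed by -2.54 and -2.22, the latter detected on 2 mNanog iPS arrays. Smarcd2 was higher by 1.68. Of 16 DNA methylation genes, 10 were higher and 6 lower. Dnmt3l, the cofactor of the de novo methyltransferases, was at least 137-fold higher, Dnmt3b by 4.78 and Tet1, which oxidizes methylcytosine, by 2.92. Of 14 genes of the germline and others whose promoters are silenced by methylation in somatic cells, 12 were higher and 1 lower. The lower member was Tdrkh, a piRNA pathway protein, at least 30.9-fold lower. Detection was in mNanog iPS alone for 7 of the 14 and in NS alone for 1. Among the 5 on all 6 arrays, 4 were higher and 0 lower. Dppa4, a chromatin-associated protein of pluripotent cells, and Xlr4a, an X-linked lymphocyte-regulated gene, were at least 91.8-fold and 68.9-fold higher.

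Among regulators of RNA, the list of the Lin28 pathway and small RNA factors had 12 of 18 members higher and 4 lower (median 0.96). Igf2bp1, an mRNA-binding protein of embryonic cells, was at 11.44, 11.51 and 11.65 in mNanog iPS and on no NS array, at least 79.3-fold higher, and Trim71, a ubiquitin ligase and RNA-binding protein, was at least 35.4-fold higher. The members lower at their brightest probe were Nras (-0.87), Tut7 (-0.54), Dicer1 (-0.46) and Plagl2 (-0.45). Dicer1 and Tut7 each had another probe that was higher, by 1.28 and 0.43, and Plagl2 lost its call without replicate 2 of NS (-0.32, adjusted p = 0.059). Splicing regulators were divided, with 13 of 28 higher and 13 lower. Rbm47 and Esrp2, which act in epithelial splicing, were at least 20.2-fold and 4.47-fold higher, and Celf2 and Qk, which act in brain, were lower by 3.24 and 2.88. Each was detected on all arrays of the group where it was high.

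Of 31 ribosome biogenesis genes, 28 were higher and 1, Pes1, lower (-0.27), with a median of 1.10 (0.65 under median scaling, where all genes had a median of -0.43). Pes1 lost its call when replicate 1 or 3 of mNanog iPS or replicate 1 or 2 of NS was left out, with differences of -0.26 to -0.23 and an adjusted p of up to 0.069. Nop58, a component of box C/D ribonucleoproteins, was at 12.69, 12.94 and 13.16 in mNanog iPS and 11.29, 11.53 and 11.21 in NS, a difference of 1.59 ± 0.13. Tcof1, Wdr43 and Nip7, which act in making or processing ribosomal RNA, were higher by 2.21, 1.98 and 1.61. Of 51 cytosolic ribosomal proteins, 24 were higher, 2 lower and 25 did not pass, with a median of 0.21. Rps4l, a paralog of Rps4x, stood out, at 12.58, 12.51 and 12.55 in mNanog iPS and on no NS array, at least 160-fold higher, whereas the next largest, Rpl4 and Rps6, differed by 0.91 and 0.89. Near-identical copies of ribosomal protein genes can share a probe, so single values are uncertain. Of 40 proteasome genes, 19 were higher and 4 lower, with a median of 0.21 that turned to -0.10 under median scaling. The testis subunit Psma8 was at least 8.48-fold higher, Psme4, an activator of the proteasome, was higher by 2.32, and the immunoproteasome subunit Psmb10 was lower by 2.03.

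Of 39 DNA replication genes, 27 were higher and 5 lower (median 0.66). Orc1, of the origin recognition complex, was at 8.06, 8.22 and 8.57 against 5.46, 5.41 and 5.55 (2.81 ± 0.15), and the licensing factor Cdt1 and Mcm10 were higher by 1.59 and 1.54. The lower members were Orc3, Rrm1, Pold2, Rfc3 and Tk1. Of 33 DNA repair genes, 21 were higher and 5 lower (median 0.64). Msh6, of mismatch repair, was at 13.07, 13.06 and 13.20 against 10.77, 11.15 and 10.61, and Mgmt, which reverses guanine alkylation, was higher by 2.34. Of 32 mitosis genes, 9 were higher and 14 lower (median -0.20), and 4 of these 23 calls reached 2-fold. Of 27 cyclins and cell cycle inhibitors, 10 were higher and 15 lower. Beside Ccnd2, the inhibitor Cdkn2c was lower by 3.90, Rb1 by 2.53 and Ccnd1 by 2.29. Ccnd1 was bright in both, at 11.46 ± 0.14 in mNanog iPS and 13.75 ± 0.06 in NS (SD, n = 3). E2f4, a repressive E2F factor, was higher by 1.89, and Ccnd3, Ccne1, Cdc25a and the inhibitor Cdkn1a by 0.83 to 1.44.

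Of 20 cholesterol synthesis genes, 18 were lower and 1, Ebp, a sterol isomerase, higher (median -1.35). Dhcr7, the last enzyme of the pathway, was at 10.05, 9.98 and 10.07 in NS and 6.97, 7.06 and 6.93 in mNanog iPS (-3.05 ± 0.08). Of 39 genes of fatty acid and phospholipid metabolism, 24 were lower and 11 higher (median -0.83). Fabp5, the epidermal fatty acid binding protein, was at least 13.4-fold lower, the reverse of Fabp3, and the desaturase Fads2 was lower by 4.06. Of 20 TCA cycle genes, 12 were lower and 2 higher (median -0.44), led by Idh3a at -1.47 and the pyruvate carboxylase Pcx, detected on 1 mNanog iPS array, at -1.41. Of 80 respiratory chain genes, 31 were lower, 12 higher and 37 did not pass, with a median of -0.09. Its largest changes were in isoforms of cytochrome oxidase, Cox6b2 (3.28), known from testis, and Cox7a1 (1.64), known from muscle and heart.

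Of 24 glycolysis genes, 11 were higher and 9 lower, with a median of 0.11 that turned to -0.08 under cyclic loess and -0.29 under median scaling. Slc2a3, a high-affinity glucose transporter, was at 13.51, 13.46 and 13.50 in mNanog iPS and 9.29, 8.41 and 9.15 in NS (4.54 ± 0.17). The phosphofructokinase Pfkp was higher by 4.39, and Aldoc, the brain aldolase, was lower by 3.29. Of 19 genes of one-carbon, serine and threonine metabolism, 14 were higher and 3 lower (median 0.67). Bhmt2, a methyltransferase that makes methionine, and Cth, which makes cysteine, were at least 34.1-fold and 17.6-fold higher, and Gcat, of threonine breakdown, was higher by 2.28. Phgdh, the first enzyme of serine synthesis, went the other way, at 11.31, 11.17 and 11.31 in NS and 8.56, 8.61 and 8.50 in mNanog iPS. Of 21 genes of the ATF4 amino acid response, 12 were higher and 8 lower, with a median of 0.30 that turned to -0.12 under median scaling. Asns, asparagine synthetase, was at 13.57, 13.80 and 13.87 against 10.15, 10.35 and 10.23, and Nupr1, a stress-induced nuclear protein, was at least 74.2-fold higher.

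Of 32 radial glial and astrocyte genes, 29 were lower and 2, Apoe and Cd9, higher (median -2.87). Detection was in NS alone for 15 of the 32, whose direction follows from the rule. Among the 13 on all 6 arrays, 2 were higher and 10 lower (median -1.81). Bcan, brevican of the neural matrix, and Ptprz1, a receptor phosphatase of radial glia, were at least 94.2-fold and 61.2-fold lower. Of 15 genes of the oligodendrocyte lineage, 14 were lower and 1, Bmp4, was higher. The lower members included Olig1 and Omg, an oligodendrocyte and neuronal surface protein (at least 19.8-fold). NS alone detected 11 of the 15, mNanog iPS alone detected 1, and only 1 was detected on all 6 arrays. Of 39 potassium, sodium and calcium channels, 27 were lower and 8 higher, and 24 were detected in NS alone. The direction of these 24 follows from the rule, and over all 9534 genes 937 were detected in NS alone. Of the 6 channels detected on all 6 arrays, 3 were higher and 2 lower (median 0.31). Kcnc1, a voltage-gated potassium channel, was at 11.29, 11.34 and 11.12 in NS and on no mNanog iPS array, at least 49.6-fold lower. Of 23 glutamate and GABA receptors and transporters, 16 were lower and 5 higher. NS alone detected 11 of the 23 and mNanog iPS alone 2. Among the 6 on all 6 arrays, 2 were higher and 4 lower. The receptor subunits Gria2 and Grin3a were at least 47.9-fold and 41.9-fold lower. Of 19 synaptic genes, 16 were lower and 2 higher (median -1.35). Detection was in NS alone for 8 of the 19. Among the 10 on all 6 arrays, 2 were higher and 8 lower (median -0.96). Syp and Syn2, proteins of synaptic vesicles, had bounds of 5.31-fold and 5.05-fold. Neuronal genes were not uniformly on the NS side: Stmn2, a tubulin-binding protein of growing axons, was at 10.83, 10.90 and 10.74 in mNanog iPS and on no NS array, at least 48.4-fold higher, and Nefm, a neurofilament, was at 9.002, 9.30 and 9.20 against 5.20, 5.19 and 4.93, where 1 NS array detected it. Stmn2 was as bright in hNanog iPS (10.87) and ES (10.68), whereas Nefm was lower in hNanog iPS (7.14) and at 5.01 in ES, where 1 array detected it.

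Of 30 cadherins and protocadherins, 25 were lower and 5 higher, and 20 were detected in NS alone. The direction of these 20 follows from the rule, and over all 9534 genes 937 were detected in NS alone. Of the 5 detected on all 6 arrays, 1 was higher and 4 lower (median -1.91). Cdh1, E-cadherin, was at 9.96, 9.89 and 10.32 in mNanog iPS and on no NS array, at least 28.5-fold higher, and Dsg2, a desmosomal cadherin, was at least 74.8-fold higher. Celsr3, Pcdhga4 and Celsr1 were higher by 1.00 to 1.63. Pcdh9, a protocadherin of neurons, was at least 13.7-fold lower, and Cdh4, R-cadherin, was at 12.41, 12.21 and 12.41 in NS and 8.74, 8.85 and 8.75 in mNanog iPS. Cldn4, a tight junction protein, and Krt8, an epithelial keratin, were at least 65.1-fold and 34.2-fold higher, and the filament proteins Nes, detected on 1 mNanog iPS array, and Vim differed by -5.55 and -2.52. Vim was at 10.24 ± 0.04 (SD, n = 3) in mNanog iPS, so it was far above background there.

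Some genes were read in opposite directions by their probes. Of 3598 genes with at least 2 tested probes, 1079 had all probes called higher, 1099 all called lower, and 178 (4.95%) had probes called in opposite directions. Both changes reached 2-fold in 18 of these. The count was 29 under median scaling and 3 when the test asked for more than 2-fold. For each gene below, the probes with the highest and the lowest difference are given. Adap1, a regulator of Arf proteins in brain with 3 tested probes, was the largest by its smaller change. Its probe ILMN_1224713 was at 7.76, 7.51 and 7.25 in mNanog iPS and on no NS array, while ILMN_2538422 was at 7.51, 7.39 and 7.10 in mNanog iPS and 12.53, 12.49 and 12.57 in NS. By the same ranking H2-D1 (1.79 and -1.91) and Insig1 (1.68 and -1.51) came next. Srr, serine racemase, with 3 tested probes, was at 12.83 against 11.69 at 1 probe and at 5.40 against 8.53 at another. Nme7, a nucleoside diphosphate kinase with 7 tested probes, was higher by 2.57 at 1 probe and lower by 1.37 at another. Tsr1, of ribosome assembly, with 2 tested probes, was higher by 1.40 and at least 2.25-fold lower. The positions of these probes in their transcripts are not analysed here.

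The other pluripotent groups show how far the levels in mNanog iPS were shared. Against hNanog iPS, 14.4% of the probes passed the threshold, and against ES 33.7%. A set of 561 probes was higher in mNanog iPS than in NS, hNanog iPS and ES, 137 of them by at least 2-fold each time, and 309 were lower than all 3, 13 by at least 2-fold each time. Among the dimmer arrays alone, where mNanog iPS and ES have 2 arrays each and hNanog iPS and NS have 1, these counts were 194 and 50. Dnmt3l was at 12.34, 12.34 and 12.30 in mNanog iPS, 10.79 in hNanog iPS and 9.33 in ES. Xlr4a was at 11.33, 8.04 and 6.85 in the same order. Of the genes lower than in all 3, Hey1 was at 6.27 in mNanog iPS, 6.90 in hNanog iPS and 7.30 in ES, and Efs, a signalling adaptor, at 4.93 (detected on 1 array), 5.57 and 6.20. NS was at 11.01 and 11.09 for these genes.

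A group of genes of matrix and connective tissue was detected in mNanog iPS and not in the other pluripotent cells. It was chosen after its values were seen, and is a description. On all 3 mNanog iPS arrays and on none of the other 9, 48 probes were detected. Dcn, decorin of the connective tissue matrix, was at 8.18, 8.71 and 8.69 in mNanog iPS and 4.49, 4.44 and 4.61 in NS, at least 9.84-fold above NS. Col1a1, the chain of type I collagen, was at 8.07, 8.13 and 8.23, at least 7.56-fold above NS. Ptx3, a secreted pentraxin, was at 7.29, 7.78 and 7.69, and Col6a1 at 7.33, 7.32 and 7.65. The MHC class II genes H2-Eb1 (7.85, 7.52 and 7.45) and H2-DMb2 (7.69, 7.28 and 7.22) were in the same set. A further 74 probes were lower in mNanog iPS than in NS yet at least 2-fold above both hNanog iPS and ES, and 33 of them were detected on every mNanog iPS array and on no array of those groups. Timp3, a protease inhibitor of the matrix, was at 8.67, 8.84 and 8.86 in mNanog iPS, 10.57, 10.33 and 10.58 in NS, and 4.61 and 4.73 in hNanog iPS and ES. Igfbp4, which binds insulin-like growth factors, was at 7.84, 7.81 and 7.88 against 12.22, 12.45 and 12.17 in NS, and Ptn, described above, was detected in no hNanog iPS or ES array. The count of 74 fell to 15 in the authors' processed values and to 30 without background correction.

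Detection in mNanog iPS was counted among probes that NS detected and hNanog iPS and ES did not. The count set no condition on level, so it takes in probes above NS, such as that of Hprt. Of 1686 probes detected on all NS arrays and on no hNanog iPS or ES array, 42 (2.49%) were detected on all mNanog iPS arrays and 1488 on none. Of the 73 with an NS level of at least 10, 12 were detected on all mNanog iPS arrays and 52 on none. Hprt, the purine salvage enzyme, was highest in mNanog iPS: it was at 8.64, 8.61 and 8.51 in mNanog iPS, 5.76, 5.79 and 5.91 in NS and on no array of hNanog iPS or ES (4.85 and 4.86). E14Tg2A, named in the strain label of all 4 groups, is known as an Hprt-deficient ES line. Of the fibroblast markers given above, Dcn and Col1a1 are among these genes, and Thy1, a surface protein of fibroblasts and neurons, was at 6.78, 6.84 and 7.11 in mNanog iPS and 6.11, 5.85 and 6.03 in NS. In a longer list of 13 fibroblast and mesenchymal markers, 9 were higher than in NS and 4 lower, Vcam1 (-1.27), Cd44 (-1.08), Acta2 (-0.99) and Prrx1 (-0.88, detected on 1 mNanog iPS array), and of 15 collagens 5 were higher and 8 lower. Whether other cells in the mNanog iPS samples gave these signals was not tested.

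**Figure D5:**
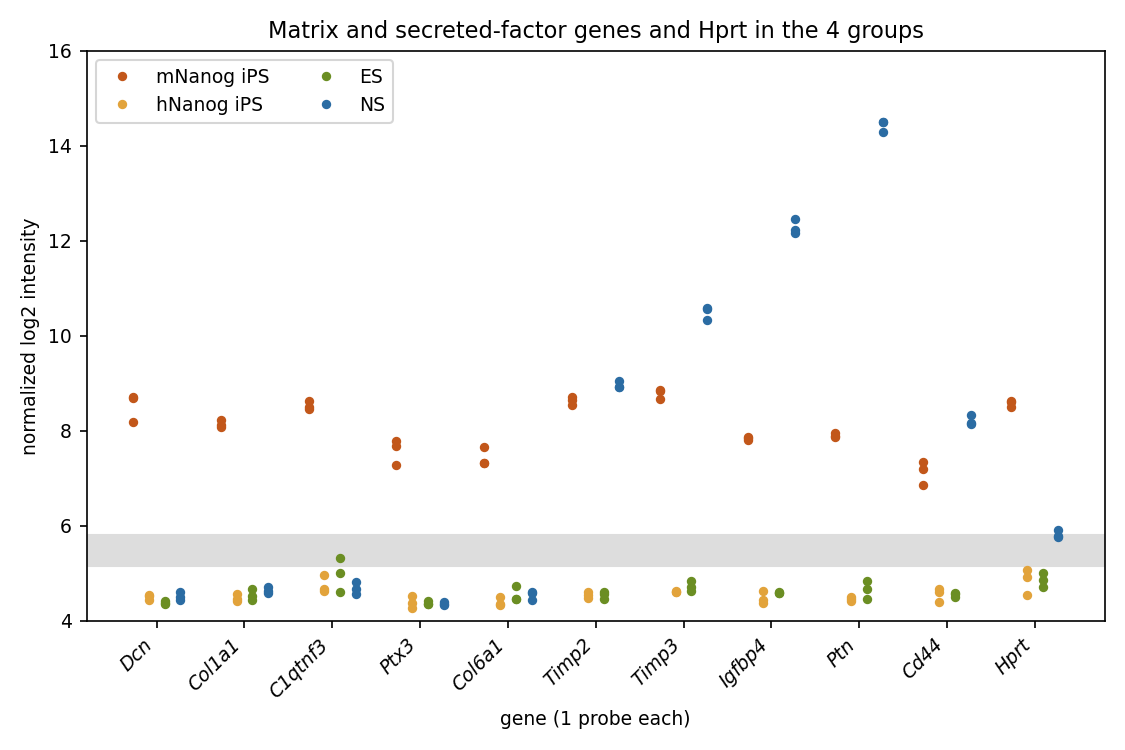
Normalized log2 intensity (y axis) on each of the 12 arrays for matrix and secreted-factor genes and Hprt (x axis); points are arrays, and the grey band spans the lowest detected level of the arrays. For each gene the 3 mNanog iPS arrays lie above the band and the hNanog iPS and ES arrays within or below it, while NS is at background for the first 5 genes, above mNanog iPS for the next 5 and near the band for Hprt.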

How the data were processed

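Total RNA of 12 mouse cell samples was amplified into biotin-labelled RNA, per the labels' protocols, for Illumina bead arrays. Per the file headers, the authors deposited an average signal, a linear intensity without normalization, and a detection p-value for 45281 probes. The authors' deposited processed table holds 20513 probes, taken here as log2 from its values, since its log base is not stated; it served as an alternative. No scanner software is named.

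With limma 3.58.1 in R 4.3.3, neqc (offset 16) was run over the 12 arrays, with background estimated through detection p-values and quantile normalization. The tested probes had detection p-values below 0.01 on 3 or more of the 6 arrays. Group means were fitted to all 12 arrays, so all 4 groups share one spread, with eBayes and Benjamini-Hochberg adjustment over 16961 probes at 0.05. Gene names come from the platform annotation: 14680 probes have 1 symbol, 5 several and 2276 none. The brightest tested probe stands for a gene. Precision is limited by having 3 arrays a group. Slides are not named. The code was tested on simulated data.

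Members and lists were chosen with earlier results of these data known. Genes were named by a rule: Nanog; the 10 largest differences each way among probes detected on all 6 arrays and the 6 largest bounds each way, with groups that do not overlap; up to 4 members of each of the 68 lists; the 5 genes whose probes differed most in opposite directions; and 5 probes each way also called against hNanog iPS and ES. Other list members, Srr among the genes with opposite probes, and the genes described as exceptions were chosen after their values were seen. Alternatives covered background, normalization, filters, the authors' values, variants of the fit, blocks and each array left out. Figures were drawn with matplotlib 3.10.9.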

Additional observations from a re-analysis of the deposited data

Results flagged for a closer look

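For 13 of the named probes, the change from NS differed between the iPS groups, mNanog iPS minus hNanog iPS, past the threshold and by at least 3 on the log2 scale; both changes use the same NS arrays, so this is the direct difference of the iPS groups. The differences were 5.23 at the Nanog probe ILMN_1245732, 4.18 at Timp3, 4.15 at S100a6, 4.09 at Timp2, 4.03 at Dcn, 3.78 at C1qtnf3, 3.74 at Hprt, 3.67 at Col1a1, 3.44 at Ptn, 3.36 at Igfbp4, 3.29 at Xlr4a, 3.19 at Ptx3 and 3.04 at Col6a1. Timp2, Timp3, Ptn, Igfbp4, C1qtnf3, Dcn, Col1a1, Ptx3 and Col6a1 belong to sets taken for a higher level or sole detection in mNanog iPS among the pluripotent groups. S100a6 and Hprt were picked after their values were seen. Membership in those sets already implies a higher level in mNanog iPS, so the count of 13 is a description. The other Nanog probe, ILMN_2706623, differed by only 0.43 (adjusted p = 0.046 in limma's test), with hNanog iPS at 11.03, against 7.08 at ILMN_1245732; both probes were detected on all 3 hNanog iPS arrays. S100a6, a calcium-binding protein, was at 9.29, 9.38 and 9.32 in mNanog iPS, was detected on 2 NS arrays (mean 5.36) and was detected on no hNanog iPS array. Whether these differences come from the form of Nanog or from the clones cannot be told apart. How far the mouse Nanog probes read human NANOG was not tested, so their values compare signal at the probe. Groups of 3 arrays are too small for a test of single outlying arrays.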

How the results depend on the processing

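The 353 named probes were recomputed under 22 alternatives, which gave 7599 values: 7475 kept their direction and side of the threshold, 122 lost the threshold and 2 changed direction, both under median scaling, Numb (-0.071) and Errfi1 (-0.27). Of the 122, 59 fell under the 2-fold test, 26 under median scaling and 15 with 1 array left out, the last at Sox2, Errfi1, Pes1 and Plagl2. With 1 array left out, Id4 moved by over 1.5 times, to 0.53. Leaving out 1 array gave 12498 to 12854 changed probes, 6254 to 6454 higher, 6244 to 6421 lower and 6647 to 6823 of at least 2-fold. Whether the replicate numbers pair the samples could not be decided. The deviations of same-numbered arrays correlated at -0.33, 0.10 and 0.18. Over all pairs of an mNanog iPS and an NS array, this correlation was positive for like brightness and negative for unlike brightness. With replicate number as a block, 12879 probes were called, and of the named calls only Sox2 and Errfi1 were lost. Brightness as a block gave 13536. The brighter arrays alone gave 12588, with 1 mNanog iPS array against 2 NS, and the dimmer alone 11327, with 2 against 1; each lone array is assumed to vary like the other groups. The 2-fold test gave 4959 changed probes, 2286 higher and 2673 lower. Median scaling gave 2500 higher. With probes detected on all 6 arrays, 3880 were lower and 3536 of at least 2-fold, from a smaller set of 11673; the authors' processed values gave 3162 of at least 2-fold. The list medians changed sign in 13 of 68 lists under median scaling and 5 under cyclic loess.

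Genes with opposite probes numbered 29 under median scaling, 117 among probes on all 6 arrays, 3 under the 2-fold test and 156 to 178 with 1 array left out. Probes higher than NS, hNanog iPS and ES (561) numbered 95 under median scaling, 303 among probes on all 6 arrays, 79 under the 2-fold test, 194 on the dimmer arrays alone and 448 to 611 with 1 array left out. Probes lower than all 3 (309) numbered 11 under median scaling, 189 under cyclic loess, 1 under the 2-fold test, 196 on the brighter and 50 on the dimmer arrays, and 207 to 347 with 1 array left out. Probes between NS and the other pluripotent groups (74) numbered 30 without background correction, 44 with an offset of 50, 43 under median scaling, 15 in the authors' values, 22 under the 2-fold test and 71 to 81 with 1 array left out. Among genes detected on all 6 arrays, the chromosome 13 median minus that of all genes was -0.27, -0.18 in the authors' values and -0.30 to -0.22 with 1 array left out. The causes were not tested beyond what the construction of each alternative shows. Signal over background limits the dim genes, whose bounds stay near 1.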

Other observations

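By chromosome, the median difference of genes detected on all 6 arrays was lowest on chromosome 13, at -0.19 over 246 genes, and highest on chromosome 17, at 0.21 over 368 genes. Each mNanog iPS array gave a median below 0 on chromosome 13 against the NS mean, from -0.24 to -0.15. The same chromosome was at -0.21 in hNanog iPS minus NS and at -0.14 in ES minus NS, comparisons that share the NS arrays. Under median scaling it was at -0.62 and chromosome 17 at -0.21.

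Eif2s3y, a translation factor gene on the Y chromosome, was at 9.28, 9.66 and 9.79 in mNanog iPS and at 4.42, 4.49 and 4.33 in NS, where no array detected it, a difference of at least 20.4-fold (adjusted p = 7.1e-12). It was at 8.40 in hNanog iPS and 10.34 in ES. The other Y-linked probe tested, of Uty, was dim and was detected on 2 mNanog iPS and 2 NS arrays. Its mean was 5.81 in mNanog iPS and 5.27 in NS, a difference of 0.54 ± 0.18 (SE). Eif2s3y alone therefore does not show whether the NS cells carry a Y chromosome.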
